A study of Homo sapiens with 24 samples.

Results

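The genes described here encode the sensors of endoplasmic reticulum (ER) stress and the chaperones and factors that act downstream of them: ERN1, EIF2AK3, ATF6, XBP1, DDIT3, HSPA5, HSP90B1, DNAJB9, SDF2L1 and HERPUD1. These 10 genes were matched by symbol among 18417 genes measured on 24 Affymetrix Human Gene 1.0 ST arrays, and each lay on 1 probe set that carried no other gene's symbol. The RNA came from 2 human inflammatory breast cancer lines that the labels give as estrogen receptor negative, SUM149PT with a p53 mutation labelled M237I and SUM190PT with a p53 mutation labelled Q317X. Each line received 17β-estradiol (10 nM) with CG-1521, CG-1521 alone, estradiol (10 nM) alone or vehicle (ethanol and DMSO) for 48 h, with 3 arrays per group from independent experiments. CG-1521, which the series title calls a histone deacetylase inhibitor, was given at 7.5 µM to SUM149PT in medium with serum and at 5 µM to SUM190PT, which was without serum during the treatment. Line, dose and medium therefore changed together and cannot be told apart in any comparison of the lines, and each condition was seen in a single line of its kind. All values are log2 expression, so a difference of 1 is a 2-fold change of signal. Levels of different probe sets are not comparable with each other, and the XBP1 probe set does not separate the spliced from the unspliced mRNA.

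Proteins that enter the secretory pathway fold in the ER, and unfolded protein that accumulates there activates sensors in its membrane. ERN1 (also called IRE1) splices the XBP1 mRNA, EIF2AK3 (also called PERK) phosphorylates a translation initiation factor and thereby favours synthesis of the factor ATF4, and ATF6 moves to the Golgi, where proteases release its transcription factor domain. The factors so produced raise transcription of chaperones such as HSPA5 (BiP) and HSP90B1 (GRP94), of co-chaperones, and of the machinery that returns misfolded proteins to the cytosol for degradation. DDIT3 (CHOP) is a transcription factor downstream of ATF4 that is associated with cell death under prolonged stress. The sensors act through changes of their proteins, which mRNA levels do not report.

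The promoters of 5 of the 10 genes held an exact match to a known ER stress element within 250 bases before and 50 bases after the annotated start. They are shown because these elements are the sequences through which ATF6 and XBP1 are known to act, and because the genes that carry them did not move alike. The ER stress element, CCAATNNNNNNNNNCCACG on either strand, stood in 3 of the 10 genes, HSPA5, HSP90B1 (at 2 places) and XBP1, against 27 of all 35116 promoter windows of that length (0.0769%). The second ER stress element, ATTGG and CCACG with any base between them, on either strand, stood in HERPUD1 and SDF2L1, against 19 of all windows (0.0541%). Counted by windows, as in the background, the 10 genes had 12, of which 3 held the first element and 2 the second. The sequences are RefSeq promoter windows of GRCh38.p14, each 300 bases and read in the direction of the gene. Capitals mark the matched elements and, in HERPUD1, also a C/EBP-ATF element (TGATGNAA, here on the reverse strand), which 3.62% of all windows held.
HSPA5, chr9:125241294-125241593, minus strand: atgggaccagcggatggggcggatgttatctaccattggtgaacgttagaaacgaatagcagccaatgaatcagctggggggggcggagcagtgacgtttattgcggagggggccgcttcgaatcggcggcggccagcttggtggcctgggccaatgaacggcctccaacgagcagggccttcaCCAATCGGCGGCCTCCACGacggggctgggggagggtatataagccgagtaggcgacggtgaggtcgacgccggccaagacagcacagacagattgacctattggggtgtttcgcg
HSP90B1, chr12:103930160-103930459, plus strand: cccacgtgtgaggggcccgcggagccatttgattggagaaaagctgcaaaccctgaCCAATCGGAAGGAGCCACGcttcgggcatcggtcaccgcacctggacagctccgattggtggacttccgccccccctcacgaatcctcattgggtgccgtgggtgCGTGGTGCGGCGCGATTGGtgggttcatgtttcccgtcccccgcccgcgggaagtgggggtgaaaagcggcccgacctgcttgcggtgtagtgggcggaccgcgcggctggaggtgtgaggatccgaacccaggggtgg
XBP1, chr22:28800520-28800819, minus strand: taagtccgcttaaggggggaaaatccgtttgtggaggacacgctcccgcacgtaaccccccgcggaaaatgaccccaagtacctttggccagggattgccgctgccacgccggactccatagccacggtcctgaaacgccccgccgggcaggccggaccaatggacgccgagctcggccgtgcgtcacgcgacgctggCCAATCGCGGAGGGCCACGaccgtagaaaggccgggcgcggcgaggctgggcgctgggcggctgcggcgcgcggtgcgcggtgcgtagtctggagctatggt
HERPUD1, chr16:56931892-56932191, plus strand: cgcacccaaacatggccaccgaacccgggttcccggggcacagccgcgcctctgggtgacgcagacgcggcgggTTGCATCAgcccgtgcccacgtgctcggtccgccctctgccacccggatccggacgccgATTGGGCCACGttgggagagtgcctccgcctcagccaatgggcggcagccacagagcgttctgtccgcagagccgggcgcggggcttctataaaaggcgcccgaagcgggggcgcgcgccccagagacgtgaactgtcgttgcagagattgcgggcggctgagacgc
SDF2L1, chr22:21642052-21642351, plus strand: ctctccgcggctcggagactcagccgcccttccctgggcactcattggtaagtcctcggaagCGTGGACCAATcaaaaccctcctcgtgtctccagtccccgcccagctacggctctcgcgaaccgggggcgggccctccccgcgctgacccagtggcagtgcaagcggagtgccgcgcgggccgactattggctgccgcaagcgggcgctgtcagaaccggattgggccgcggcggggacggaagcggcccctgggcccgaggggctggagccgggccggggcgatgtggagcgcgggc
In HSPA5 the element began 66 bases before the start and in XBP1 52 bases before it. In HSP90B1 the elements began at 194 and, on the reverse strand, 89 bases before the start. In HERPUD1 the second element began 117 and the C/EBP-ATF element 176 bases before the start, and in SDF2L1 the second element began 188 bases before it, on the reverse strand. The core TGACGTG of the unfolded protein response element was found in none of the windows of the 10 genes, against 1.97% of all windows. These matches describe letters in the windows and do not show that a factor bound there. Elements that depart from the given letters were not searched for, so a window without capitals, or other stretches of those shown, may still hold such an element.

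Arrays of a group differed more among themselves in SUM190PT than in SUM149PT. Arrays of the same group correlated over all genes at 0.9946 or more in SUM149PT and at 0.9807 or more in SUM190PT, and the array medians lay between 5.39 and 5.5. In SUM190PT, on replicate 3 of vehicle and replicate 3 of estradiol, the median of 14 DNA replication genes lay at −1.73 and −1.93 against the other arrays of their groups, and the median of the 10 ER genes at 0.23 and 0.43. Results in SUM190PT were therefore also computed without these arrays, which no label sets apart. The SUM190PT CG-1521 arrays spread as widely in the 10 ER genes, with replicate 1 at 0.40 and replicate 2 at −0.29, and less in the replication genes, at −0.38 and 0.57. Keratins and other breast epithelial markers had array medians of 11.09 to 11.95, and fibroblast, leukocyte and endothelial markers 4.13 to 5.35. CDKN1A, a gene that deacetylase inhibitors are known to raise, rose with CG-1521 by 1.45 in SUM149PT and by 1.40 in SUM190PT. Each array carried the RNA of many cells, so a change in a share of the cells and a change in RNA per cell cannot be told apart.

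CG-1521 raised all 10 ER stress genes in SUM149PT. The rise was 4.47-fold for DDIT3 and over 3-fold for DNAJB9 and HERPUD1, between 1.6-fold and 1.83-fold for HSPA5, EIF2AK3 and ATF6, and smaller for ERN1, SDF2L1, XBP1 and HSP90B1. In limma, with Benjamini-Hochberg adjustment over the 18417 genes, all 10 passed at an adjusted p under 0.05, while 14.4% of all genes passed as higher. The median difference of the 10 genes was 0.77, against −0.002 over all genes. For all 10 the CG-1521 arrays lay wholly above the vehicle arrays, in a comparison where the groups of 44.6% of all genes did not overlap. In SUM190PT the same comparison gave a mixed picture: 2 of the 10 passed as higher (8.32% of all genes did) and 2 as lower (8.26%), with a median of 0.29 against −0.048 over all genes. The groups of 5 of the 10 genes did not overlap there, against 31.5% of all genes. Without these 2 arrays of replicate 3, 4 genes passed as higher and 2 as lower. The share of all genes passing in that setting is not given here.

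**Figure D1:**
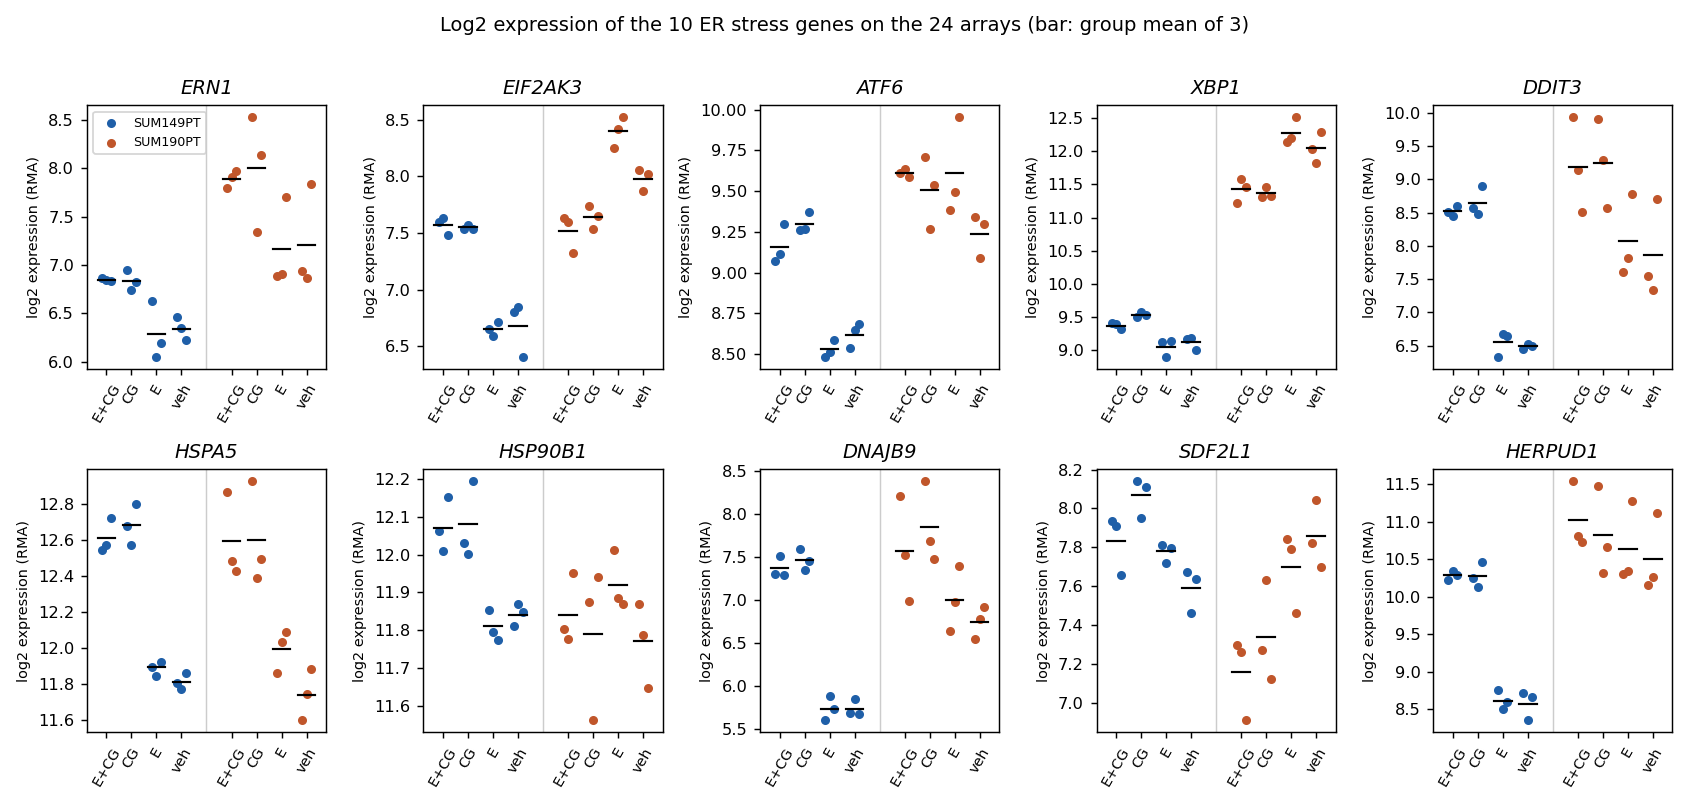
Log2 expression (RMA) of the 10 ER stress genes on all 24 arrays, 1 panel per gene with its own axis. Points are arrays, bars the means of 3 arrays, blue SUM149PT and orange SUM190PT, with estradiol and CG-1521 (E+CG), CG-1521 (CG), estradiol (E) and vehicle (veh) from left to right. In SUM149PT every gene was higher in both CG-1521 groups on average, and in SUM190PT EIF2AK3, XBP1 and SDF2L1 were lower in both.

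Among the sensors, EIF2AK3 parted the lines most clearly. SUM149PT had it at 7.53, 7.57 and 7.53 with CG-1521, against 6.80, 6.84 and 6.41 in vehicle, a difference of 0.86 (SE 0.102, adjusted p = 5.67e-06). SUM190PT had it at 7.73, 7.54 and 7.65 with CG-1521, against 8.06, 7.87 and 8.02 in vehicle. All treated arrays lay above all vehicle arrays in SUM149PT and below them in SUM190PT, where the difference of −0.34 (SE 0.118) did not pass (adjusted p = 0.0646). It passed under a further quantile normalization (adjusted p = 0.0449) and with all 24 arrays in the fit (adjusted p = 0.0235).

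ATF6 moved up in SUM149PT and did not pass in SUM190PT. SUM149PT had it at 9.26, 9.27 and 9.37 with CG-1521, against 8.54, 8.65 and 8.68 in vehicle (0.68, SE 0.0814, adjusted p = 6.91e-06). The SUM190PT arrays were at 9.71, 9.27 and 9.54 with CG-1521, against 9.34, 9.09 and 9.30 in vehicle, and overlapped (0.26, adjusted p = 0.264).

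ERN1 was the most variable sensor in SUM190PT. In SUM149PT it was at 6.95, 6.74 and 6.82 with CG-1521, against 6.46, 6.35 and 6.22 in vehicle (0.49, SE 0.121, adjusted p = 0.00442), a call that ended when all 24 arrays shared the estimate of spread (adjusted p = 0.18). The SUM190PT arrays read 8.53, 7.34 and 8.13 with CG-1521, against 6.94, 6.86 and 7.84 in vehicle. The third vehicle array was close to the treated arrays, and the difference of 0.79 (SE 0.315) did not pass (adjusted p = 0.107). It was 1.10 and passed without that vehicle array (adjusted p = 0.0299), and 1.12 and passed without the second CG-1521 array (adjusted p = 0.0247). At 0.79 it also passed when all 24 arrays shared the estimate of spread (adjusted p = 0.024) and with the replicate number as a block (adjusted p = 0.04).

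XBP1, the factor that ERN1 splices, moved in opposite directions in the lines. The SUM149PT arrays read 9.498, 9.578 and 9.525 with CG-1521, against 9.169, 9.187 and 8.998 in vehicle (0.42, SE 0.0847, adjusted p = 0.00102). The SUM190PT arrays read 11.31, 11.47 and 11.33 with CG-1521, against 12.04, 11.82 and 12.30 in vehicle, and fell by 0.68 (SE 0.148, adjusted p = 0.00793). In neither line did the treated and vehicle arrays overlap.

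DDIT3 had the largest difference of the 10 genes in both lines, with an error that was far larger in SUM190PT. Its SUM149PT arrays read 8.57, 8.49 and 8.90 with CG-1521, against 6.46, 6.52 and 6.50 in vehicle (2.16, SE 0.111, adjusted p = 8.86e-10). Its SUM190PT arrays read 9.91, 9.29 and 8.56 with CG-1521, against 7.55, 7.33 and 8.71 in vehicle. The third vehicle array stood apart as high, and the treated arrays were spread out, with the third the lowest. The difference of 1.39 (SE 0.454) did not pass (adjusted p = 0.0538). It passed at 1.82 without the third vehicle array (adjusted p = 0.0179), and at 1.74 without the third CG-1521 array (adjusted p = 0.0386). With all 24 arrays in the fit the difference of 1.39 passed (SE 0.355, adjusted p = 0.00528), with a spread shared with the less variable SUM149PT arrays.

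HSPA5, the main chaperone of the ER lumen and the protein that holds the sensors inactive, rose by nearly the same amount in both lines. The SUM149PT values were 12.67, 12.57 and 12.80 with CG-1521, against 11.80, 11.77 and 11.86 in vehicle (0.87, SE 0.0809, adjusted p = 4.5e-07). The SUM190PT values were 12.93, 12.39 and 12.49 with CG-1521, against 11.60, 11.74 and 11.88 in vehicle (0.86, SE 0.159, adjusted p = 0.00298). Treated and vehicle arrays did not overlap in either line, and both calls held when any single array of the comparison was left out.

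HSP90B1, the ER member of the HSP90 family, changed least in SUM149PT. It was at 12.031, 12.002 and 12.195 with CG-1521 there, against 11.81, 11.87 and 11.85 in vehicle (0.23, SE 0.0768, adjusted p = 0.0262). Its SUM190PT values were 11.87, 11.56 and 11.94 with CG-1521, against 11.87, 11.79 and 11.65 in vehicle, and the groups overlapped (0.03, 95% interval −0.23 to 0.28, adjusted p = 0.91). The SUM149PT call ended without the first vehicle array (adjusted p = 0.0759), the third vehicle array (0.0585) or the third CG-1521 array (0.128), with only the groups compared in the fit (0.0541) and with all 24 arrays (0.0809).

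DNAJB9, a J-domain co-chaperone of HSPA5 in the ER, rose in both lines. SUM149PT arrays were at 7.59, 7.34 and 7.45 with CG-1521, against 5.68, 5.84 and 5.66 in vehicle (1.73, SE 0.0985, adjusted p = 2.39e-09). SUM190PT arrays were at 8.39, 7.68 and 7.47 with CG-1521, against 6.54, 6.77 and 6.91 in vehicle (1.10, SE 0.298, adjusted p = 0.0237). Treated arrays lay above vehicle arrays in both lines, but the SUM190PT call ended without the first vehicle array (adjusted p = 0.0656), the second vehicle array (0.0661) or the first CG-1521 array (0.113).

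SDF2L1, a component of the ER chaperone complex around HSPA5, rose in SUM149PT and fell in SUM190PT. In SUM149PT it was at 8.14, 7.95 and 8.11 with CG-1521, against 7.67, 7.46 and 7.64 in vehicle (0.48, SE 0.093, adjusted p = 0.000701). In SUM190PT it was at 7.27, 7.63 and 7.12 with CG-1521, against 7.82, 8.04 and 7.70 in vehicle (−0.51, SE 0.163, adjusted p = 0.0475). The groups did not overlap in either line, but the fall in SUM190PT was close to the threshold. It ended without the first vehicle array (adjusted p = 0.0751), the second vehicle array (0.171), the first CG-1521 array (0.147) or the third CG-1521 array (0.163), after centring each array on its median (0.0864), and with only the groups compared in the fit (0.0701).

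HERPUD1, an ER membrane protein that helps assemble the ubiquitin ligase complex for misfolded proteins, had its rise in SUM149PT. It was at 10.25, 10.13 and 10.47 with CG-1521 there, against 8.71, 8.35 and 8.66 in vehicle (1.71, SE 0.11, adjusted p = 8.19e-09). In SUM190PT it was at 11.48, 10.31 and 10.67 with CG-1521, against 10.15, 10.27 and 11.12 in vehicle. The groups overlapped, with replicate 3 the highest of the vehicle arrays and replicate 1 the highest of the CG-1521 arrays (0.31, SE 0.355, adjusted p = 0.597). Without the 2 SUM190PT arrays of replicate 3 the difference was 0.61 (adjusted p = 0.195).

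**Figure D2:**
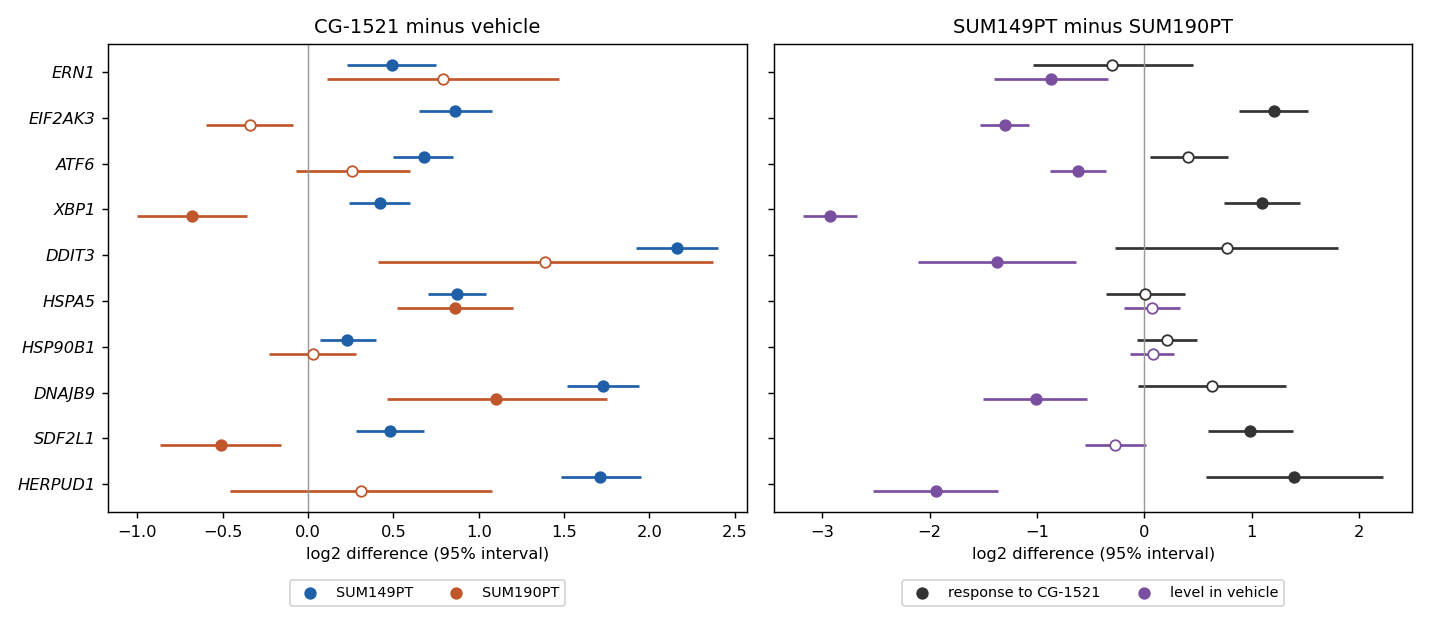
Log2 differences with 95% intervals for the 10 genes, filled where the adjusted p was under 0.05 and open where it was not. The left panel shows CG-1521 minus vehicle in SUM149PT (blue) and SUM190PT (orange), and the right panel SUM149PT minus SUM190PT for the response to CG-1521 (black) and for the level in vehicle (purple). All 10 points of SUM149PT are filled at 0.23 to 2.16, and HSPA5 alone lies at nearly the same value in both lines and on 0 in both right-hand comparisons.

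The response to CG-1521 was similar in the presence of estradiol in SUM149PT. With the combination against estradiol alone 9 of the 10 genes passed as higher and 0 as lower (16.5% and 20.4% of all genes did), with DDIT3 at 1.97 (SE 0.111), HERPUD1 at 1.67 (SE 0.11) and DNAJB9 at 1.64 (SE 0.0985). The gene that did not pass was SDF2L1, at 7.94, 7.91 and 7.66 with the combination, against 7.81, 7.72 and 7.80 with estradiol. Its groups overlapped (0.06, adjusted p = 0.676). The calls for ERN1 (adjusted p = 0.11) and XBP1 (adjusted p = 0.0537) ended when all 24 arrays shared the spread, and that for HSP90B1 ended without the third combination array (adjusted p = 0.0542).

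In SUM190PT the combination against estradiol raised 1 of the 10 genes (12.5% of all genes passed as higher) and lowered 3 (13.2% passed as lower). HSPA5 rose, at 12.86, 12.48 and 12.42 with the combination, against 11.86, 12.03 and 12.09 with estradiol (0.59, SE 0.159, adjusted p = 0.017). EIF2AK3 fell, at 7.63, 7.60 and 7.33 with the combination, against 8.25, 8.42 and 8.52 with estradiol (−0.88, SE 0.118, adjusted p = 0.00035). XBP1 fell too, at 11.22, 11.59 and 11.47 with the combination, against 12.14, 12.20 and 12.52 with estradiol (−0.86, SE 0.148, adjusted p = 0.00169). None of these groups overlapped, as was so for 45.6% of all genes, and EIF2AK3 and XBP1 passed whichever single array was left out. SDF2L1 was at 7.30, 7.26 and 6.91 with the combination, against 7.84, 7.79 and 7.46 with estradiol (−0.54, SE 0.163, adjusted p = 0.0283). HSPA5 lost its call without the first estradiol array (adjusted p = 0.0634) or the first combination array (0.0785). SDF2L1 lost its call without the first (0.097) or second (0.0985) estradiol array or the third combination array (0.113), and under a further quantile normalization (0.0778). DNAJB9, at 8.21, 7.52 and 6.99 with the combination, against 6.64, 6.98 and 7.39 with estradiol, did not pass here (0.57, adjusted p = 0.171). Without the 2 arrays of replicate 3, 6 genes passed, with DDIT3 at 1.49 (adjusted p = 0.0152) and ERN1 at 0.997 (adjusted p = 0.0131) as the additional ones. Both also passed with all 24 arrays in the fit (adjusted p = 0.016 for DDIT3 and 0.0284 for ERN1). For the fit without the 2 arrays, the share of all genes passing is not given here.

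Estradiol itself moved none of the 10 genes past the threshold in either line. In SUM149PT the differences from vehicle lay between −0.10 and 0.19, with 0 of the 10 genes at an unadjusted p under 0.05 and 0% of all genes passing in limma. In SUM190PT they lay between −0.16 and 0.41, and 0.00543% of all genes, a single gene, passed. With the replicate number as a block, 519 genes passed, and again none of the 10. The block fits replicate effects shared by all groups of the line, so it is not a paired fit of estradiol and vehicle alone. Such a paired fit was not run, so its calls for the 10 genes were not tested. By number, every estradiol array lay above its vehicle array for all of the 10 genes but ERN1 and SDF2L1. The share of all genes with that order was not counted, so the order is not read as a result about these genes. HSPA5 was at 11.86, 12.03 and 12.09 with estradiol, against 11.60, 11.74 and 11.88 in vehicle. The largest difference was that of EIF2AK3, at 8.25, 8.42 and 8.52 with estradiol, against 8.06, 7.87 and 8.02 in vehicle (0.41, SE 0.118, adjusted p = 0.0751), followed by ATF6 (0.37, adjusted p = 0.164). All estradiol arrays lay above all vehicle arrays for EIF2AK3, ATF6 and HSP90B1. These are 3 of the 10 genes, near the 28.4% of all genes whose groups did not overlap. Of the 10 genes, EIF2AK3 and ATF6 had an unadjusted p under 0.05. EIF2AK3 (adjusted p = 0.0171) and ATF6 (adjusted p = 0.0453) passed when all 24 arrays shared the spread, and EIF2AK3 passed without the first vehicle array (adjusted p = 0.0474).

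Added to CG-1521, estradiol gave differences of −0.23 to 0.02 in SUM149PT and −0.28 to 0.21 in SUM190PT, none past the threshold (0% of all genes in limma in both lines). SDF2L1 in SUM149PT was the single gene of the 10 at an unadjusted p under 0.05 in these comparisons (−0.23, adjusted p = 0.743). The interaction of estradiol with CG-1521 passed for none of the 10 genes in either line, with 0% of all genes passing in SUM149PT and 0.516% in SUM190PT. At an unadjusted p under 0.05 it held SDF2L1 in SUM149PT (−0.42, adjusted p = 0.762) and EIF2AK3 in SUM190PT (−0.54, SE 0.167, adjusted p = 0.0961, or 0.0276 with all 24 arrays in the fit).

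In vehicle most of the 10 genes, including the co-chaperone DNAJB9 and the degradation gene HERPUD1, were lower in SUM149PT than in SUM190PT. The chaperones HSPA5, HSP90B1 and SDF2L1 did not differ past the threshold. Of the 10 genes 7 were lower in SUM149PT and 0 higher, against 22.1% and 24.5% of all genes. XBP1 had the largest gap, at 9.169, 9.187 and 8.998 in SUM149PT, against 12.04, 11.82 and 12.30 in SUM190PT (−2.93, SE 0.121, adjusted p = 3.75e-15), a signal 7.63-fold higher in SUM190PT. HERPUD1 differed by −1.94 (SE 0.281), DDIT3 by −1.37 (SE 0.355), EIF2AK3 by −1.30 (SE 0.11), DNAJB9 by −1.01 (SE 0.235), ERN1 by −0.87 (SE 0.255) and ATF6 by −0.62 (SE 0.124). HSPA5 (0.07, 95% interval −0.19 to 0.33), HSP90B1 (0.08, −0.13 to 0.28) and SDF2L1 (−0.27, −0.55 to 0.02) did not pass. Without the third SUM190PT vehicle array the call for ERN1 ended (−0.56, adjusted p = 0.0744). Without the 2 SUM190PT arrays of replicate 3 SDF2L1 passed (−0.34, adjusted p = 0.0497).

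The lines responded differently to CG-1521 in 4 of the 10 genes, all with the higher signed difference from vehicle in SUM149PT (9.01% of all genes passed in that direction). XBP1 and SDF2L1 are among them with differences of opposite sign, 0.42 and 0.48 in SUM149PT, against −0.68 and −0.51 in SUM190PT. The response of SUM149PT minus that of SUM190PT was 1.40 for HERPUD1 (SE 0.397, adjusted p = 0.0145), 1.21 for EIF2AK3 (SE 0.156, adjusted p = 1.07e-05), 1.10 for XBP1 (SE 0.171, adjusted p = 9.21e-05) and 0.99 for SDF2L1 (SE 0.192, adjusted p = 0.000771). For HSPA5 it was 0.01, with a 95% interval of −0.36 to 0.38. DDIT3 (0.77, interval −0.27 to 1.81), DNAJB9 (0.63, −0.06 to 1.32), HSP90B1 (0.21, −0.07 to 0.49) and ERN1 (−0.30, −1.04 to 0.45) did not pass, and their intervals allow sizeable differences between the lines. ATF6 (0.41, adjusted p = 0.0992) passed under a further quantile normalization (adjusted p = 0.0201) and without the first SUM190PT CG-1521 array (adjusted p = 0.0468). In the presence of estradiol 6 genes passed in the same direction and 0 in the other (10.6% and 9.86% of all genes did): EIF2AK3 at 1.80, HERPUD1 at 1.28, XBP1 at 1.18, DNAJB9 at 1.07, ATF6 at 0.64 and SDF2L1 at 0.60. The calls for HERPUD1, DNAJB9 and SDF2L1 each ended when certain single arrays were left out, at adjusted p between 0.0548 and 0.0929. The differences without the third SUM190PT estradiol array were 0.96 for HERPUD1 and 0.873 for DNAJB9.

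The lines were closer to each other under CG-1521 than in vehicle for several genes. EIF2AK3 averaged 7.55 ± 0.0228 in SUM149PT and 7.64 ± 0.0981 in SUM190PT with CG-1521 (SD, n = 3 each), with overlapping arrays and a gap of −0.09, whereas the gap in vehicle was −1.30. The gap of HERPUD1 was −0.54 with CG-1521 and −1.94 in vehicle, and that of XBP1 −1.84 and −2.93. Wider gaps under CG-1521 were those of ERN1 (−1.17, against −0.87 in vehicle) and HSP90B1 (0.28, against 0.08). SDF2L1 changed order, with a gap of 0.73 under CG-1521 and −0.27 in vehicle. The changes of these gaps are the response differences given above, so they are no further evidence. The level of ERN1 was higher in all 4 SUM190PT groups than in any SUM149PT group, and so was that of XBP1. HSPA5 showed the opposite arrangement: its 4 CG-1521 groups, of both lines, averaged 12.59 to 12.68 and its other 4 groups 11.74 to 11.99. Neighbouring groups within each of these sets did not separate by their ranges of arrays.

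**Figure D3:**
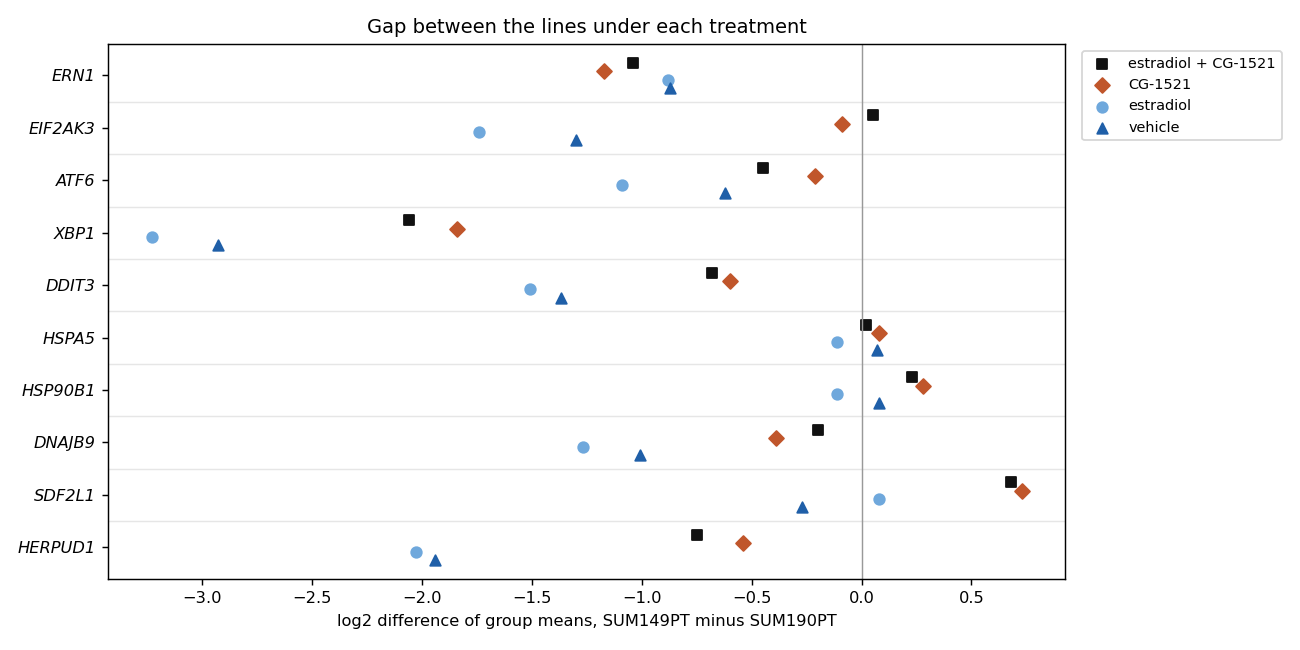
Gap between the lines, SUM149PT minus SUM190PT, in log2 expression of group means of 3 arrays, for each of the 10 genes under estradiol and CG-1521 (squares), CG-1521 (diamonds), estradiol (circles) and vehicle (triangles). For EIF2AK3, ATF6, XBP1, DDIT3, DNAJB9 and HERPUD1 the CG-1521 groups lie nearer 0 than the vehicle groups, and for ERN1 and HSP90B1 farther from 0. HSPA5 lies between −0.11 and 0.08, and SDF2L1 lies above 0 under CG-1521.

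The wider ER folding and quality-control machinery also rose in SUM149PT under CG-1521. These lists were compiled from the roles of the genes, without the 10 described above. They were chosen with earlier results of these data known, so their counts are description. Of 11 measured ER chaperones and co-chaperones 8 rose and 0 fell (median 0.42), with DNAJC3, an inhibitor of EIF2AK3 and co-chaperone, at 0.98, the HSPA5 nucleotide exchange factors SIL1 at 0.80 and HYOU1 at 0.63, and MANF at 0.48. Of 14 genes of ER-associated degradation 12 rose and 0 fell (median 0.55), including the ubiquitin ligase SYVN1 (1.09), the lectin ERLEC1 (0.90), EDEM2 (0.87) and the membrane protein SELENOS (0.84). Of 17 genes of translocation and ER-Golgi transport 12 rose and 0 fell (median 0.52), with the coat protein gene SEC24D at 2.16, the retrieval receptor KDELR3 at 1.38, and the coat gene SEC31A and cargo receptor LMAN1 at 0.79 each. Of 11 targets of the EIF2AK3 and ATF4 arm 8 rose and 0 fell (median 0.83). Among them were the phosphatase subunit PPP1R15A (1.36), which reverses the action of EIF2AK3, the tRNA synthetase WARS1 (1.33), the pseudokinase TRIB3 (1.17) and SESN2 (1.12). Disulfide isomerases and oxidases were divided, 4 up and 2 down of 10 (median 0.17), with the oxidase ERO1B at 2.07 and ERP44 at 0.66 and with ERO1A at −0.45 and TMX1 at −0.42. Against these counts stand the 14.4% of all genes that passed as higher and the 19.9% that passed as lower.

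In SUM190PT fewer genes of each of these lists passed as higher. Over all genes 8.32% passed as higher and 8.26% as lower, and counts of 1 or 2 genes in a list are near those shares. No ER chaperone or co-chaperone of the 11 rose and 2 fell (median −0.22), the lectin chaperone calreticulin, CALR (−0.97), and DNAJC1 (−0.41). CALR was at 9.92, 9.90 and 10.12 with CG-1521, against 11.01, 11.01 and 10.84 in vehicle, with no overlap. In SUM149PT it was at 11.25, 11.19 and 11.29 with CG-1521, against 11.05, 11.04 and 11.20 in vehicle, and the response difference was 1.11 (SE 0.139, adjusted p = 7.06e-06). Of the 10 isomerases and oxidases 1 rose, ERO1A (0.90), and 5 fell, among them PDIA4 (−0.71), TMX1 (−0.56) and P4HB (−0.44), with a median of −0.39. Degradation genes rose in 3 of 14 and fell in 0 (median 0.06), namely the segregase VCP (0.79), DERL2 (0.61) and SELENOS (0.44), and of the 17 transport genes 0 rose and KDELR3 fell (−0.53, list median −0.07). Of the 11 targets of the EIF2AK3 and ATF4 arm 2 rose, PPP1R15A (2.20) and WARS1 (0.54), and 0 fell (median 0.21). Without the 2 arrays of replicate 3, 5 of these 11 rose (median 0.60). The counts of the other ER lists moved by at most 1 gene without those arrays, a setting for which no share over all genes is given here.

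In the presence of estradiol the SUM149PT lists gave nearly the same counts, and more genes passed as lower in SUM190PT. With the combination against estradiol 8 of 11 chaperones and co-chaperones rose and 0 fell in SUM149PT (median 0.39), against 0 and 5 in SUM190PT (median −0.28). Of the 17 transport genes 13 rose and 0 fell in SUM149PT (median 0.46), against 0 and 9 in SUM190PT (median −0.36). The shares over all genes were 16.5% higher and 20.4% lower in SUM149PT, and 12.5% and 13.2% in SUM190PT. Degradation genes in SUM190PT gave 2 higher and 2 lower of 14, and isomerases and oxidases 1 higher and 4 lower of 10. Of the 11 targets of the EIF2AK3 and ATF4 arm 1 rose and 0 fell in SUM190PT (median 0.25). Without the 2 arrays of replicate 3, 7 rose (median 0.71), with no share over all genes given for that setting.

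The difference between the lines was itself tested for these genes. The response of SUM149PT exceeded that of SUM190PT in 9 of 11 ER chaperones, 11 of 17 transport genes, 6 of 14 degradation genes, 6 of 10 isomerases and oxidases and 3 of 11 targets of the EIF2AK3 and ATF4 arm. It was lower in 1 isomerase or oxidase and in 0 of the other lists. Without the 2 SUM190PT arrays of replicate 3, 4 of the 11 EIF2AK3 and ATF4 targets were lower and 3 higher. The background was 9.01% of all genes higher and 11.6% lower with all arrays in the fit, and it is not given here without those 2 arrays.

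**Figure D4:**
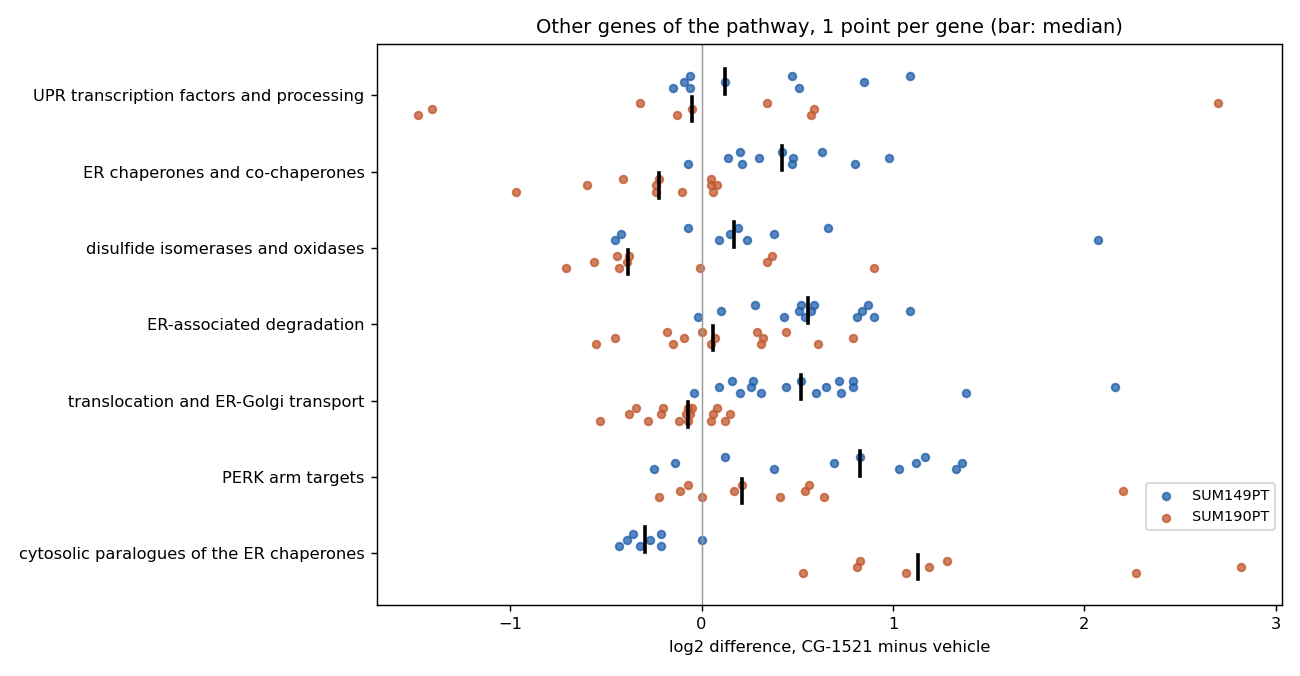
Log2 difference, CG-1521 minus vehicle, of the other measured genes of 6 ER pathway lists and of the cytosolic paralogues, 1 point per gene and a bar at the median, in SUM149PT (blue) and SUM190PT (orange). The medians of the ER lists lie at 0.12 to 0.83 in SUM149PT and at −0.39 to 0.21 in SUM190PT, and those of the cytosolic paralogues at −0.29 in SUM149PT and 1.13 in SUM190PT.

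The cytosolic relatives of the ER chaperones fell in SUM149PT for 6 of 8 measured genes and rose in SUM190PT for all 8. HSPA8, HSP90AA1 and HSP90AB1 encode the constitutive HSP70 and HSP90 proteins of the cytosol and nucleus, of which HSPA5 and HSP90B1 are the ER counterparts. In SUM149PT HSP90AB1 was at 12.33, 12.38 and 12.40 with CG-1521, against 12.60, 12.53 and 12.59 in vehicle (−0.21). In SUM190PT it was at 12.82, 12.20 and 12.82 with CG-1521, against 11.56, 11.38 and 11.32 in vehicle (1.19). The treated arrays lay below the vehicle arrays in SUM149PT and above them in SUM190PT. HSP90AA1 was at −0.32 in SUM149PT and 0.83 in SUM190PT, and HSPA8 at −0.21 and 0.53. The response differences between the lines were −1.40 for HSP90AB1, −1.15 for HSP90AA1 and −0.74 for HSPA8, all past the threshold. In the list, which also holds co-chaperones of the cytosol such as HSPH1 and DNAJA1, 0 of 8 rose and 6 fell in SUM149PT, where 14.4% of all genes passed as higher and 19.9% as lower, and 8 rose and 0 fell in SUM190PT, where 8.32% and 8.26% did. With the combination against estradiol 0 rose and 7 fell in SUM149PT (16.5% and 20.4% of all genes), and 7 rose and 0 fell in SUM190PT (12.5% and 13.2%), or 4 and 0 without the 2 SUM190PT arrays of replicate 3. HSPA5 thus rose in both lines, while the cytosolic genes rose in SUM190PT and mostly fell in SUM149PT. Over the 12 SUM190PT arrays, correlations of HSPA5 with the other ER stress genes ran from −0.78 (XBP1) to 0.93 (DNAJB9). DDIT3 was near the upper end (0.89) and SDF2L1 near the lower (−0.77). Correlations of HSPA5 with the cytosolic genes were not examined.

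Genes whose pattern over the arrays was most like that of HSPA5 or DDIT3 were picked by the lower of the 2 Pearson correlations over the 12 arrays of each line. For HSPA5 they were VIPAS39 (0.98 in SUM149PT and 0.97 in SUM190PT), RNF6, ZFAND5, AP5Z1 and RIT1, all at 0.96 or above in both lines. For DDIT3 they were SLC3A2 (0.96 and 0.98), GDF15 (0.99 and 0.96), LURAP1L, PSAP and GTPBP2, all at 0.95 or above. The arrays of a line share its treatments and fall into those with and without CG-1521, so the correlations mostly describe a common difference between these sets.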

How the data were processed

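The data are 24 Affymetrix Human Gene 1.0 ST arrays, 3 per group, of total RNA labelled after amplification with a NuGEN kit, per the labels' protocols. The deposited values are log2 expression, made by the authors with RMA in Affymetrix Expression Console, per the submitters' processing notes; the version, and whether both lines were normalized together, are not given in the sources used here. Of 33297 probe sets, 19460 had a single gene symbol, and 19429 of these matched a RefSeq gene by identifier. For the 769 genes with more than 1 such probe set the brightest on average was used, which gave 18417 genes without a filter on intensity. The number of arrays limits the precision.

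Tests used limma 3.58.1 under R 4.3.3 (statmod 1.5.0; two-sided, Benjamini-Hochberg over 18417 genes, threshold 0.05), over the 12 arrays of a line within lines and over all 24 arrays between lines, and the procedure was tested on simulated data. Python 3.11.15, pandas 2.3.3, numpy 2.4.6 and matplotlib 3.10.9 made tables and figures. The genes and lists were chosen with earlier results of these data known. All 10 genes were described in every comparison of the lines and treatments. From each list up to 4 other genes with the largest differences past the threshold were named. A few listed genes were not analysed here.

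Whether replicate numbers pair the arrays was checked by correlating the deviations of same-numbered arrays from their group means. All 3 pairs exceeded 0.1 for SUM190PT estradiol against vehicle (0.443, 0.229 and 0.729) and for SUM190PT combination against CG-1521 (0.518, 0.434 and 0.502). For every other within-line comparison at least 1 pair did not. Alternatives were a replicate block, fits over fewer or more arrays, quantile normalization, median centring, other probe-set and brightness rules, and leaving out single arrays or the SUM190PT arrays that stood apart. The last of these was run on the lists after seeing the data. Shares of all genes for fits without those arrays are not given here, so counts in that setting have no background beside them.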

Additional observations from a re-analysis of the deposited data

Results flagged for a closer look

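The lines differed in the response to CG-1521 for several of the 10 genes, by the test of the difference itself. All values are the SUM149PT response minus the SUM190PT response (log2). Without estradiol the difference was 1.21 for EIF2AK3 (SE 0.156), 1.10 for XBP1 (SE 0.171), 0.99 for SDF2L1 (SE 0.192) and 1.40 for HERPUD1 (SE 0.397). With estradiol in both arms it was 1.80 for EIF2AK3 (SE 0.156), 1.18 for XBP1 (SE 0.171), 0.64 for ATF6 (SE 0.175), 1.07 for DNAJB9 (SE 0.333), 0.60 for SDF2L1 (SE 0.192) and 1.28 for HERPUD1 (SE 0.397). EIF2AK3, XBP1, SDF2L1 and HERPUD1 passed in both comparisons. Line, dose and medium cannot be told apart in these values.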

How the results depend on the processing

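Under every alternative run, no difference of the 10 genes that had passed changed its direction. Leaving out single arrays gave 2 to 6 of the 10 genes past the threshold for SUM190PT CG-1521 against vehicle (2 without the first or second vehicle array or the first CG-1521 array), 2 to 6 for SUM190PT combination against estradiol, 0 to 1 for SUM190PT estradiol against vehicle and 3 to 6 for the response difference with estradiol (3 without the third SUM190PT combination array). In SUM149PT the counts were 9 to 10 for CG-1521 against vehicle and 8 to 9 for the combination against estradiol. With all 24 arrays in the fit 7 genes passed for SUM190PT CG-1521 against vehicle, 2 for SUM190PT estradiol against vehicle and 1 for the SUM190PT interaction. That fit shares a single estimate of the spread with the SUM149PT arrays, which differed less within their groups. The causes were not tested.

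With the replicate number as a block, none of the 10 genes passed for SUM190PT estradiol against vehicle or for the SUM190PT combination against CG-1521, the comparisons in which the numbers pair the arrays. Over all genes the block gave 519 calls for the first, against 1 without it. The block shares its replicate effects among all groups of a line, so it is not a paired fit of either comparison alone. Such paired fits were not run. Where the numbers do not pair the arrays, the block gave 5 genes for SUM190PT CG-1521 against vehicle (ERN1 added, adjusted p = 0.04) and 5 for SUM190PT combination against estradiol (ERN1 added, adjusted p = 0.0426), and it changed no other count of the 10 genes. Over all genes the block gave 3901 calls for SUM190PT CG-1521 against vehicle (3053 without it). For SUM190PT combination against estradiol it gave 5546 (4732 without it). It left 0 calls over all genes for the SUM190PT interaction, against 95 without it.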

Other observations

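The CREB3 family holds transcription factors anchored in the ER membrane and released by the same kind of proteolysis as ATF6. Its responses to CG-1521 differed between the lines for CREB3L1, CREB3L4 and CREB3L2, by 1.61 (SE 0.372, adjusted p = 0.00359), 1.27 (SE 0.199, adjusted p = 9.58e-05) and 0.84 (SE 0.167, adjusted p = 0.000985) for SUM149PT minus SUM190PT, and not past the threshold for CREB3 (0.50, adjusted p = 0.0725). They belong to a list of 9 further unfolded protein response factors, of which 4 rose and 0 fell with CG-1521 in SUM149PT, and 2 rose and 2 fell in SUM190PT (3 rose and 2 fell without the vehicle and estradiol arrays of replicate 3). Over all genes 14.4% passed as higher and 19.9% as lower in SUM149PT, and 8.32% and 8.26% in SUM190PT. CREB3L4 was at 5.76, 5.84 and 5.60 in SUM149PT with CG-1521, against 5.75, 6.22 and 5.67 in vehicle (−0.15, adjusted p = 0.425). In SUM190PT it was at 6.66, 6.91 and 6.81 with CG-1521, against 8.33, 8.07 and 8.21 in vehicle, and fell by 1.41 (SE 0.144, adjusted p = 7.08e-05). CREB3L1 also fell in SUM190PT (−1.48, SE 0.326, adjusted p = 0.00832), where replicate 3 was the highest vehicle array, and did not pass in SUM149PT (0.12, adjusted p = 0.508). CREB3 rose in both lines, by 1.09 (SE 0.0894) in SUM149PT and 0.59 (SE 0.168) in SUM190PT. In vehicle CREB3L1 (−2.97), CREB3L4 (−2.32) and CREB3L2 (−1.95) were lower in SUM149PT than in SUM190PT, while CREB3 did not pass (−0.29, adjusted p = 0.0958). CREB3L1 averaged 5.70 and CREB3L4 5.88 in SUM149PT vehicle, near the array medians of 5.39 to 5.5, against 8.67 and 8.20 in SUM190PT vehicle. A fall of either gene in SUM149PT may therefore not have been visible, which limits their response differences. ATF3, a stress factor downstream of ATF4, rose by 0.85 in SUM149PT and by 2.70 in SUM190PT, a response difference of −1.85 (SE 0.567, adjusted p = 0.0231). ERN2, the further sensor measured, did not pass (−0.04, adjusted p = 0.864, in SUM149PT and −0.26, adjusted p = 0.174, in SUM190PT).

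The 14 DNA replication genes all passed as lower with CG-1521 in SUM149PT (median −1.37), where 19.9% of all genes did. In SUM190PT all 14 differences were negative, from −1.77 to −0.47 (median −0.94). A single gene, RFC3 (−1.77), passed as lower there, where 8.26% of all genes did. The response difference between the lines passed for 0 of the 14 (median −0.35). Without the SUM190PT arrays of replicate 3 in the vehicle and estradiol groups, all 14 passed as lower in SUM190PT too (median −1.50). That setting was chosen after seeing the data, and the share of all genes passing in it is not given here.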
